A study of Mus musculus with 6 samples.

Results

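Lin28a, Lin28b, Trim71, Hmga1, Hmga2, Igf2bp1, Igf2bp2, Igf2bp3 and Dis3l2 are 9 genes of the LIN28 and let-7 axis, chosen by name through the GENCODE symbols of the Ensembl identifiers, and they make up 9 of the 55416 genes counted. All 9 passed the filter on low counts, as did 15746 genes in all. RNA-seq was performed on EpiLCs, the formative cells that mouse embryonic stem cells (mESCs) form on leaving naïve pluripotency, after 48 h in N2B27 medium with KSR, bFGF and Activin A on fibronectin. WT EpiLCs came from the parental Sox1-GFP line 46C, and KO EpiLCs from a clone of 46C with a homozygous CRISPR/Cas9 insertion in Oct6 (Pou3f1). Both lines had been kept in 2i and LIF before differentiation, and each was differentiated in 3 paired biological replicates. Total RNA was depleted of ribosomal RNA, the libraries were stranded, and they held between 10995505 and 14680930 counts on genes. Since the KO cells are a single clone, the effect of the insertion and other differences between the clone and its parent cannot be told apart.

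LIN28A and LIN28B are RNA-binding proteins that block the maturation of let-7 microRNAs, in part by recruiting the uridylyl transferases TUT4 and TUT7, after which the exonuclease DIS3L2 degrades the tailed precursor. Mature let-7 in turn represses mRNAs with matches to its seed, among them those of Lin28a, Lin28b, the stem cell ubiquitin ligase and RNA-binding protein Trim71, the chromatin protein Hmga2 and the oncofetal mRNA-binding proteins of the Igf2bp family. LIN28 is abundant in pluripotent cells and mature let-7 accumulates as cells differentiate.

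The let-7 family is shown with its seed, bases 2 to 8, in capitals, since this stretch pairs with target mRNAs. The RefSeq sequences (GRCm38.p6) of the 12 mouse let-7 genes give 9 mature 5′ arm sequences, and the seed GAGGUAG was the same in all 9.
let-7a-5p: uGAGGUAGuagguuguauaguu
let-7b-5p: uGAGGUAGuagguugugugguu
let-7c-5p: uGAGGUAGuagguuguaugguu
let-7d-5p: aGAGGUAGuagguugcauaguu
let-7e-5p: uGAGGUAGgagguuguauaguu
let-7f-5p: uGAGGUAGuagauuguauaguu
let-7g-5p: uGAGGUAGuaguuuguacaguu
let-7i-5p: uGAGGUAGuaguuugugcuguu
miR-98-5p: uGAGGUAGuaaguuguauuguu

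The zinc knuckles of LIN28 bind the letters GGAG in the loop of a let-7 precursor. Between the arms of the hairpin, GGAG was present in 9 of the 12 RefSeq precursors and absent from 3, Mirlet7b, Mirlet7c-2 and Mir98, where its absence says only that these letters are not in this stretch. The stretches of 4 precursors are shown with GGAG in capitals, and Mirlet7c-1 and Mirlet7c-2 differ in it although both give let-7c-5p.
Mirlet7a-2: uagaguuacaucaagGGAGauaa
Mirlet7c-1: uagaguuacacccugGGAGuuaa
Mirlet7e: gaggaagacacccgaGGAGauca
Mirlet7c-2: uugggcucugccccgcucugcgguaa

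Matches to the seed were searched on the sense strand of the longest annotated 3′ UTR of each protein-coding gene (GENCODE M39, GRCm39), as CTACCTC, which pairs with the seed, and as CTACCTCA, the same letters followed by A, so that every match of the longer motif is also one of the shorter. Trim71 held 4 matches of CTACCTC, all 4 of which were also CTACCTCA, in a UTR of 5512 bases. Igf2bp1 held 4, of which 3 were CTACCTCA, and Lin28b and Hmga2 held 4 each, of which 1 was CTACCTCA. Lin28a held 2, both of the longer form, Igf2bp2 and Igf2bp3 1 each of the longer form, and Hmga1 1 of the shorter form. Dis3l2 held 0 in a UTR of 352 bases. Among the 13045 genes tested that had a 3′ UTR, 14.4% held CTACCTC at least once and 4.94% CTACCTCA, against 8 and 7 of the 9 members, and 14 genes held CTACCTC at least 4 times, 4 of which were members. Known let-7 targets were among the reasons these genes form a group, so the difference between these shares is a description.

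The first match of each of the 8 members with a match, read 5′ to 3′ along the mRNA, is shown with its position, and each of the 21 matches was found there in GRCm39. Capitals mark CTACCTC, with the A that follows it where it is part of the motif.
Lin28a, chr4:133732500-133732523, minus strand: tgcacagcctgttgaaCTACCTCA
Lin28b, chr10:45257118-45257141, minus strand: cacccgggcgggaagtCTACCTCA
Trim71, chr9:114341540-114341563, minus strand: caacattgcctaagtcCTACCTCA
Hmga1, chr17:27782250-27782273, plus strand: ctcctctgttcacaaaCTACCTCt
Hmga2, chr10:120200129-120200152, minus strand: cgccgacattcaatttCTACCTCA
Igf2bp1, chr11:95852604-95852627, minus strand: tgctgtgcgaagtaaaCTACCTCA
Igf2bp2, chr16:21878223-21878246, minus strand: aacacacaaataaaagCTACCTCA
Igf2bp3, chr6:49063721-49063744, minus strand: gtgcatttttactcaaCTACCTCA

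Oct6 itself (Pou3f1), the gene targeted in the KO line, had 161, 142 and 122 CPM (WT replicates 1 to 3) against 127, 140 and 128 CPM (KO replicates 1 to 3), where CPM are counts scaled to the TMM-normalized library size. The groups overlapped, and gene counts carry no information on whether a transcript has the insertion. Its log2 fold change was −0.10 (SE 0.11; edgeR quasi-likelihood F-test with Benjamini-Hochberg adjustment, adjusted p = 0.574).

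Of the 9 members, 5 differed between WT and KO EpiLCs at an adjusted p below 0.1, against 24.3% of the genes tested. Lin28b and Igf2bp2 were higher in KO EpiLCs (2 of 9 members, 11.8% of genes tested) and Hmga2, Igf2bp1 and Igf2bp3 were lower (3 of 9 members, 12.5% of genes tested). Only Hmga2 also reached an absolute log2 fold change of 1 (6.21% of genes tested). For 5 members, Lin28a, Lin28b, Hmga2, Igf2bp1 and Igf2bp3, the 3 KO libraries lay outside the range of the 3 WT libraries, as they did for 33.6% of the genes tested. Over the 9 members the median log2 fold change was −0.16, and over all genes tested it was 0.0014. When the median log2 fold change of each chromosome was removed, 4 of the 9 members were called, against 21.1% of the genes tested. With the replicate number as a block, 6 of the 9 were called, against 30.3% of the genes tested, the added gene being Lin28a. This block keeps the pairing of the replicates, which the main test leaves out. RNA from all cells of a culture was pooled in each library, so that fewer cells expressing a gene and less RNA per cell cannot be told apart.

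**Figure D1:**
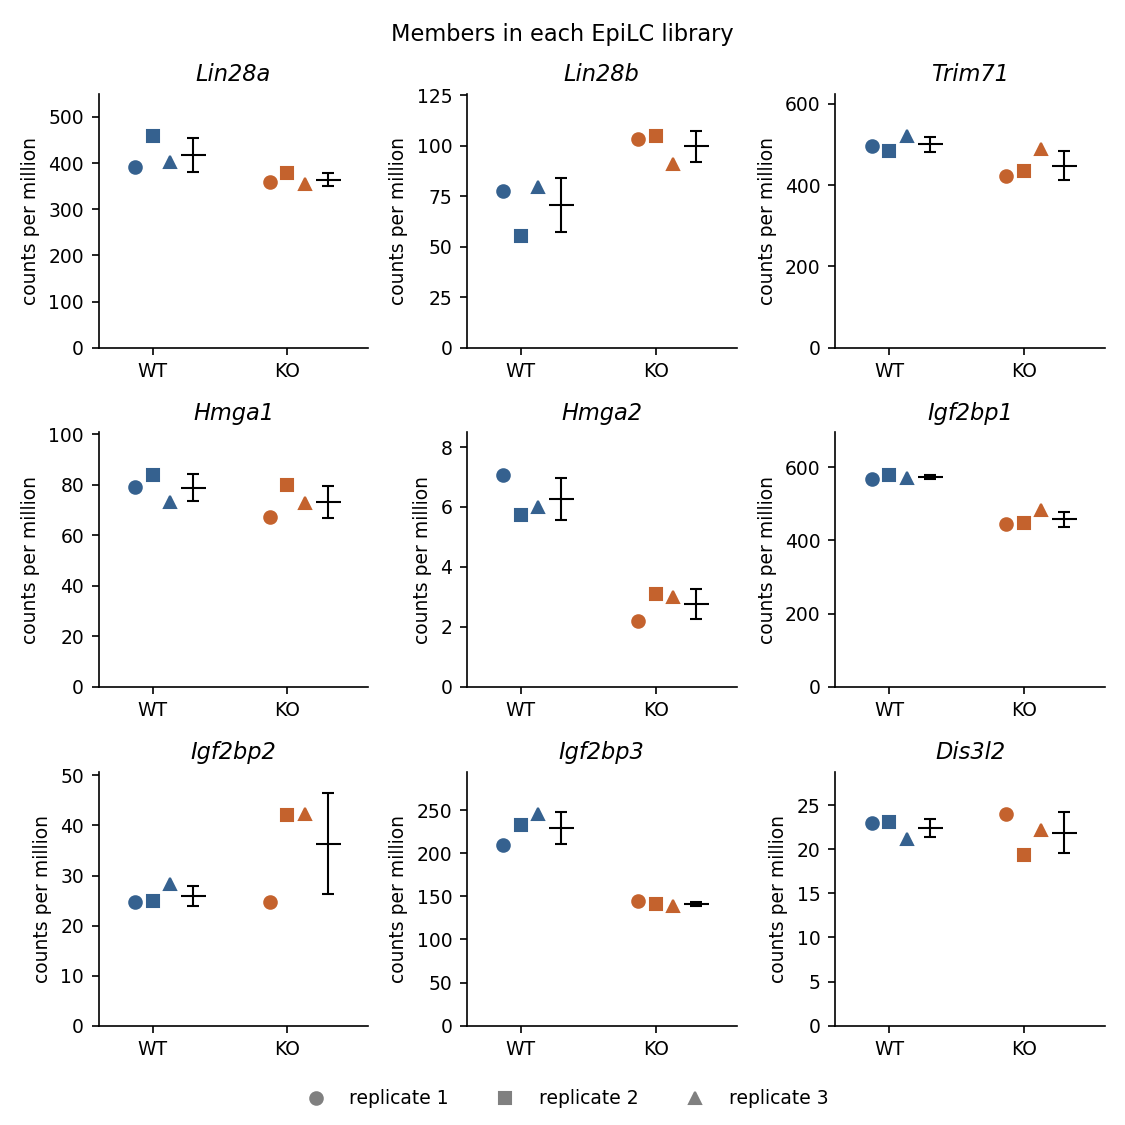
CPM (vertical axes, from 0) of the 9 members in the 3 WT (blue) and 3 KO (orange) EpiLC libraries, with the replicate number as the symbol and the mean ± SD (n = 3) in black. Hmga2 lay at 5.74 CPM or more in every WT library and at 3.08 CPM or less in every KO library, whereas KO replicate 1 of Igf2bp2 stayed at 24.7 CPM.

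Of the LIN28 genes, Lin28b rose and Lin28a, the more abundant per length, was not called in the main test, which leaves the pairing out. Lin28b (ENSMUSG00000063804.9, chromosome 10, 45252646 to 45362557, as all positions on GRCm39) had 77.4, 55.3 and 79.6 CPM (WT replicates 1 to 3) against 103, 105 and 91.0 CPM (KO replicates 1 to 3). The KO libraries all lay above the WT libraries, and WT replicate 2 was the lowest of all. The log2 fold change was 0.49 (SE 0.12; edgeR quasi-likelihood F-test with Benjamini-Hochberg adjustment, adjusted p = 0.00786), and it was 0.34 without WT replicate 2, with an adjusted p of 0.0416 from the same edgeR test. Lin28a (ENSMUSG00000050966.10, chromosome 4, 133730641 to 133746173) had 391, 459 and 403 CPM (WT) against 360, 379 and 354 CPM (KO). The groups did not overlap, but the highest KO library and the lowest WT library were close to each other. Its log2 fold change of −0.20 (SE 0.096) did not pass the threshold (adjusted p = 0.179 by the edgeR quasi-likelihood F-test with Benjamini-Hochberg adjustment), and with the replicate block the same edgeR test gave −0.19 and an adjusted p of 0.0773. Without WT replicate 2, its highest library, the log2 fold change of Lin28a was −0.13 (adjusted p = 0.440 from the same edgeR test).

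Within a library, Lin28b had 19.8, 12.0 and 19.7 counts per 100 counts of Lin28a (WT replicates 1 to 3) against 28.7, 27.6 and 25.7 (KO replicates 1 to 3). This ratio does not depend on the normalization between libraries, and its groups did not overlap. The CPM of both paralogs together were 468, 514 and 483 in WT EpiLCs and 463, 484 and 445 in KO EpiLCs, and these groups overlapped. In the annotation, 6.27% of the exon bases of Lin28a are shared with Gm13061 on the opposite strand. Whether counting used the strand is not stated, so reads of Gm13061 in these bases could have been counted with Lin28a.

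Trim71, an RNA-binding ubiquitin ligase of the TRIM-NHL family that promotes self-renewal, had 495, 484 and 521 CPM (WT) against 421, 435 and 488 CPM (KO) (ENSMUSG00000079259.3, chromosome 9, 114336201 to 114393437). KO replicate 3 lay within the WT range and the other KO libraries below it. The log2 fold change was −0.16 (SE 0.095; edgeR quasi-likelihood F-test with Benjamini-Hochberg adjustment, adjusted p = 0.288). Dis3l2, the exonuclease of uridylated precursors, had 23.0, 23.0 and 21.2 CPM (WT) against 24.01, 19.4 and 22.2 CPM (KO) (ENSMUSG00000053333.16, chromosome 1, 86631289 to 86977819). KO replicate 1 lay above the WT range, KO replicate 2 below it and KO replicate 3 within it, and the log2 fold change of −0.034 (SE 0.13; same edgeR test, adjusted p = 0.902) became 0.045 without KO replicate 2.

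Hmga2 had the largest change of the 9 members. HMGA2 is an architectural chromatin protein that binds AT-rich DNA, and its mRNA is a classic let-7 target. Hmga2 (ENSMUSG00000056758.15, chromosome 10, 120197173 to 120313095) had 95, 63 and 89 counts (WT replicates 1 to 3) against 27, 40 and 40 counts (KO replicates 1 to 3), which is 7.07, 5.74 and 6.01 CPM against 2.18, 3.08 and 3.001 CPM. All 3 KO libraries were below all WT libraries, on counts that are low for this depth. Mean levels were 6.27 ± 0.707 and 2.75 ± 0.497 CPM (SD, n = 3), and the log2 fold change was −1.18 (SE 0.24; edgeR quasi-likelihood F-test with Benjamini-Hochberg adjustment, adjusted p = 0.0017). Of the 45 genes tested within 5 Mb, 2 had a lower log2 fold change, and the median of these neighbours was 0.044. Lin28b lies on the same chromosome, whose median was −0.0020.

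Hmga1, the paralog of Hmga2, had 79.1, 83.9 and 73.3 CPM (WT) against 67.0, 79.8 and 72.8 CPM (KO) (ENSMUSG00000046711.17, chromosome 17, 27775449 to 27782648). The groups overlapped, and the log2 fold change was −0.10 (SE 0.10; edgeR quasi-likelihood F-test with Benjamini-Hochberg adjustment, adjusted p = 0.553). This value is uncertain, since 25.0% of the 50-base windows of Hmga1 transcripts also occur in Hmga1b on chromosome 11, and the treatment of reads with several matches is not stated. Hmga1 and Hmga1b together had 182, 173 and 154 CPM (WT) against 148, 166 and 156 CPM (KO), which overlapped as well. Hmga1 also shares 14.5% of its exon bases with Smim29 on the opposite strand. Although the libraries were stranded, whether counting used the strand is not stated. Reads of Smim29 in the shared bases could therefore have been counted with Hmga1. Per 100 counts of Hmga1 there were 8.95, 6.84 and 8.20 counts of Hmga2 in WT EpiLCs and 3.26, 3.86 and 4.12 in KO EpiLCs, without overlap.

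The 3 Igf2bp genes, whose proteins bind and stabilize mRNAs such as those of Igf2, Myc and Hmga2, did not move together. Igf2bp1 (ENSMUSG00000013415.10, chromosome 11, 95847989 to 95896911) had 568, 579 and 570 CPM (WT) against 444, 447 and 482 CPM (KO). The WT libraries lay close together and all KO libraries below them. Its log2 fold change was −0.32 (SE 0.091; edgeR quasi-likelihood F-test with Benjamini-Hochberg adjustment, adjusted p = 0.0167), with a median of −0.027 over the 143 genes tested within 5 Mb.

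Igf2bp3 (ENSMUSG00000029814.11, chromosome 6, 49062144 to 49192447) had 209, 233 and 246 CPM (WT) against 144, 140 and 139 CPM (KO). The KO libraries were nearly equal and far below the WT range. The log2 fold change was −0.70 (SE 0.096; edgeR quasi-likelihood F-test with Benjamini-Hochberg adjustment, adjusted p = 4.7e-05). The genes around it were lower as well. The median log2 fold change was −0.40 over the 773 genes tested on chromosome 6 and −0.48 over the 56 within 5 Mb of Igf2bp3, of which 17 were lower than Igf2bp3 and 39 higher. With the chromosome medians removed, the log2 fold change was −0.30 (adjusted p = 0.0403 from the same edgeR test), and beside the neighbours it was −0.21. In the annotation, 19.3% of the exon bases of Igf2bp3 are shared with Malsu1 on the opposite strand, whose reads could have been counted with it.

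Igf2bp2 (ENSMUSG00000033581.18, chromosome 16, 21877759 to 21982499) had 24.7, 24.9 and 28.3 CPM (WT) against 24.7, 42.1 and 42.3 CPM (KO). KO replicate 1 was level with the WT libraries and the other KO libraries were above all of them, so that the groups overlapped. The log2 fold change was 0.49 (SE 0.16; edgeR quasi-likelihood F-test with Benjamini-Hochberg adjustment, adjusted p = 0.0434). The call rested on single libraries. It was lost on leaving out WT replicate 1 or 2 or KO replicate 2 or 3 (0.45, 0.45, 0.37 and 0.37, adjusted p = 0.104, 0.112, 0.191 and 0.214 from the same edgeR test), and without KO replicate 1 the log2 fold change was 0.70.

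Genes of chromosome 16 were raised as a group in the KO libraries, with a median log2 fold change of 0.55 over 471 genes tested, and the 104 genes within 5 Mb of Igf2bp2 had a median of 0.54. Igf2bp2 did not stand out from them, as 40 of these 104 were lower and 64 higher, and with the chromosome medians removed its log2 fold change was −0.063 (adjusted p = 0.851 by the edgeR quasi-likelihood F-test with Benjamini-Hochberg adjustment). The shift was nearly the same in each KO library, in which the neighbours were 0.54, 0.56 and 0.55 above the WT mean on the log2 scale in KO replicates 1 to 3. Igf2bp2 itself was −0.066, 0.70 and 0.71 from its WT mean in these libraries, so that KO replicate 1 lacked the rise that its neighbours had. For Igf2bp3 the neighbours were −0.45, −0.46 and −0.52 from the WT mean in KO replicates 1 to 3, and Igf2bp3 was −0.67, −0.70 and −0.72, lower than the neighbours in each library. The part of the chromosome 6 and chromosome 16 shifts in these values was not tested beyond the removal of the medians.

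**Figure D2:**
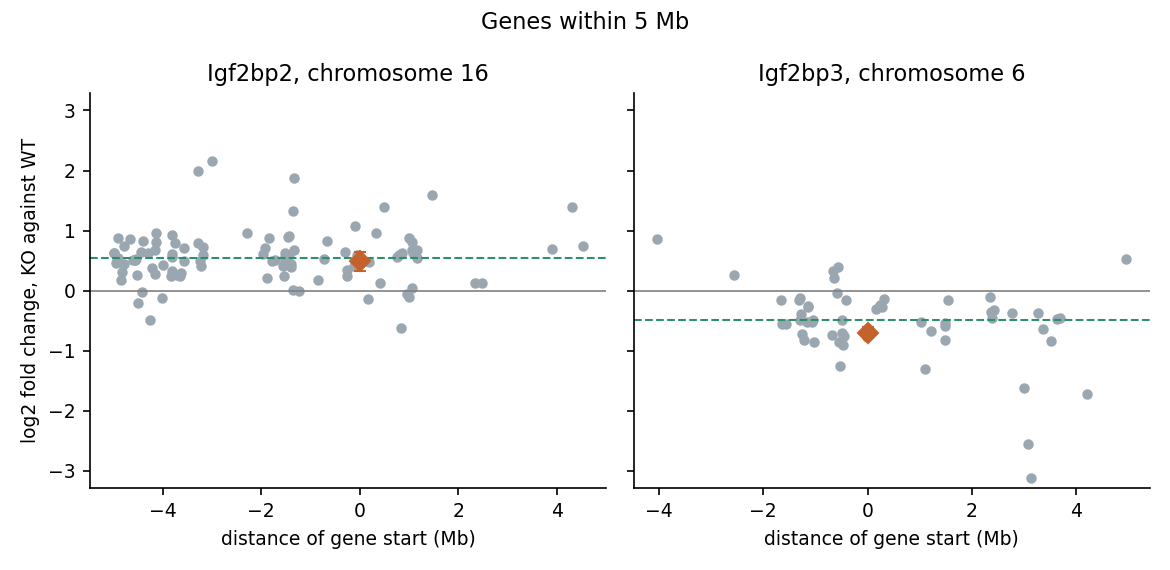
Log2 fold change of KO against WT (vertical axis) of the genes tested within 5 Mb of Igf2bp2 (left) and Igf2bp3 (right), by the distance of their starts in Mb (horizontal axis), with the member as an orange diamond with its SE and the median of the neighbours as a dashed line. The dashed lines lie at 0.54 and −0.48, and the members at 0.49 and −0.70.

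**Figure D3:**
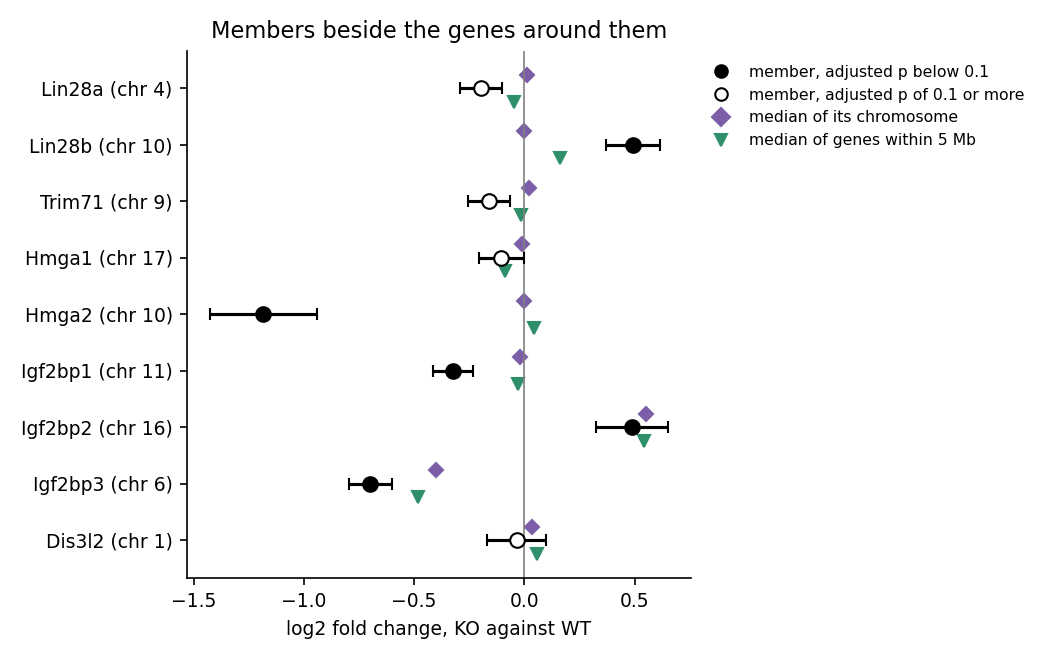
Log2 fold change of KO against WT (horizontal axis) of each member with its SE, filled where the adjusted p was below 0.1, beside the median of the genes tested on its chromosome (diamond) and within 5 Mb (triangle). These medians lie near 0 except for Igf2bp2 (0.55 and 0.54), Igf2bp3 (−0.40 and −0.48) and the neighbours of Lin28b (0.16).

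For the other members the chromosome median lay between −0.019 and 0.034, and removing it changed no call. The 35 genes tested within 5 Mb of Lin28b had a median of 0.16, and 29 of them were lower than Lin28b. The Igf2bp genes together had 802, 837 and 844 CPM (WT) against 613, 630 and 664 CPM (KO). Among the counts of the 3 genes in a library, Igf2bp3 took 26.1%, 27.8% and 29.1% in WT EpiLCs and 23.5%, 22.3% and 21.0% in KO EpiLCs. Igf2bp2 took 3.08%, 2.97% and 3.35% against 4.04%, 6.69% and 6.38%. Both shares differed without overlap between the groups, and neither is corrected for gene length or for the shifts of chromosomes 6 and 16. In KO replicate 1 Igf2bp2 itself was level with WT replicate 1 (24.7 CPM in each). Its share was higher there because Igf2bp1 (444 against 568 CPM) and Igf2bp3 (144 against 209 CPM) were lower.

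The order of the 9 members was taken per length, as CPM per kilobase of the union of a gene's exons. The shares of counts above and the most abundant genes of the marker lists below are not corrected for length. In WT EpiLCs Lin28a was highest, with 104 ± 9.05 CPM per kilobase (SD, n = 3), followed by Igf2bp1 (55.7 ± 0.566), Trim71 (53.6 ± 2.04), Igf2bp3 (26.3 ± 2.11), Hmga1 (17.1 ± 1.15), Lin28b (7.35 ± 1.40), Igf2bp2 (3.23 ± 0.251), Dis3l2 (2.20 ± 0.104) and Hmga2 (0.727 ± 0.0819). Igf2bp1 and Trim71 overlapped between libraries and did not differ beyond their spread, whereas every other pair of neighbours in this order was apart. In KO EpiLCs Lin28a (90.7 ± 3.34) was again followed by Trim71 (48.0 ± 3.79) and Igf2bp1 (44.5 ± 2.06), which overlapped, and then by Igf2bp3 (16.2 ± 0.291) and Hmga1 (15.9 ± 1.39), which now overlapped too. Lin28b (10.4 ± 0.789), Igf2bp2 (4.53 ± 1.26), Dis3l2 (2.15 ± 0.228) and Hmga2 (0.319 ± 0.0576) kept their order. With the length of the longest transcript instead, the WT order was unchanged, while in KO EpiLCs Igf2bp1 (53.7) came before Trim71 (48.0) and Lin28b (18.0) before Hmga1 (16.4), both pairs with overlapping libraries. The overlaps of Igf2bp1 with Trim71 in WT EpiLCs (67.2 ± 0.682 and 53.6 ± 2.04) and of Igf2bp3 with Hmga1 in KO EpiLCs (29.1 ± 0.524 and 16.4 ± 1.44) were absent with this length, so that they depend on the length chosen.

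**Figure D4:**
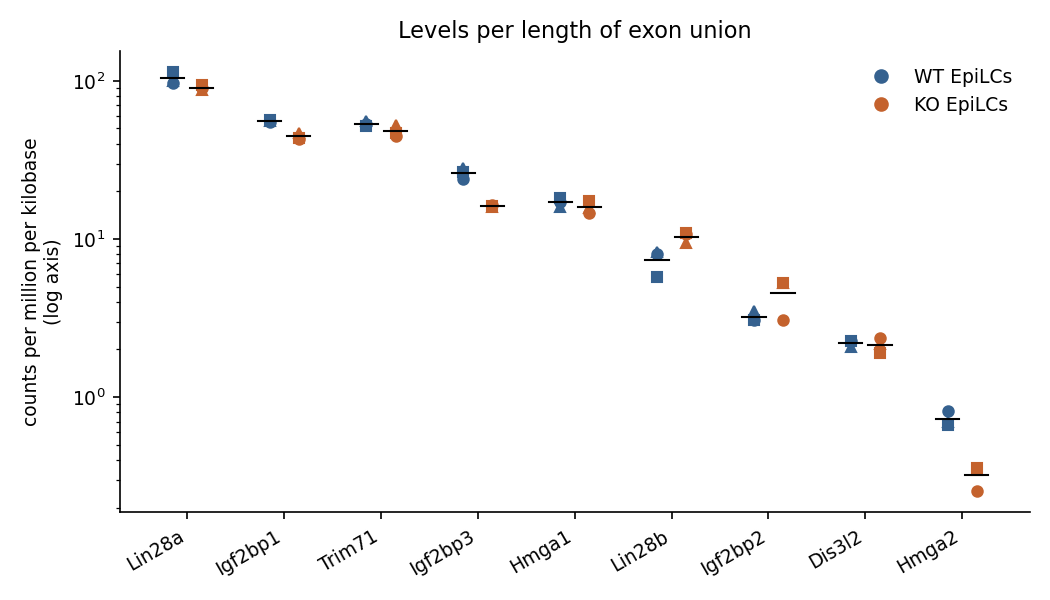
CPM per kilobase of exon union (log axis) of each member in the 3 WT (blue) and 3 KO (orange) libraries, ordered by the WT mean, with the mean of each group as a line and the replicate number as the symbol. Lin28a is highest in both groups (104 and 90.7) and Hmga2 lowest (0.727 and 0.319).

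The let-7 genes gave almost no counts. Of the 12 let-7 genes in the annotation, 9 had 0 counts in every library, which allows up to between 0.204 and 0.273 CPM in a library (3 counts of its total, counting error only). Mir98, which lies within Huwe1, had 5, 8 and 2 counts (WT replicates 1 to 3) against 11, 5 and 2 (KO replicates 1 to 3), Mirlet7e had 7 counts over all 6 libraries and Mirlet7g 2. None passed the filter on low counts. Libraries of total RNA of this kind do not measure a mature microRNA of 22 bases, so that the level of let-7 was not measured here. Of the 6 genes listed as hosts of let-7 genes, 5 were matched and 2 tested, Huwe1 and Wdr82, and 0 were called by the edgeR test.

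Of the 15 genes of microRNA processing and effectors, all tested, 1 was higher and 1 lower in KO EpiLCs, with a median log2 fold change of −0.013. Beside this list and those below stand the shares over all genes tested, 11.8% higher and 12.5% lower. Tnrc6c, a scaffold of the silencing complex, fell from 70.3 ± 7.13 to 48.8 ± 5.42 CPM (SD, n = 3), with a log2 fold change at −0.53 (SE 0.11; edgeR quasi-likelihood F-test with Benjamini-Hochberg adjustment, adjusted p = 0.00284). Dgcr8, the partner of Drosha, lies on chromosome 16 and had a log2 fold change of 0.32 (adjusted p = 0.0232 from the same edgeR test), which was −0.23 with the chromosome medians removed (adjusted p = 0.125), and its call was lost without KO replicate 1 (0.29, adjusted p = 0.106). Drosha, which cleaves primary transcripts, had −0.20, Dicer1, which cleaves precursors, −0.19, and Ago2, the slicing Argonaute, 0.087, none of them called. Dicer1 passed the threshold without WT replicate 2 (−0.27, adjusted p = 0.0815 from the same edgeR test). With each library left out in turn, its log2 fold change came as near to 0 as −0.12 and its adjusted p rose up to 0.481 in this edgeR test.

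Of the 12 genes of RNA tailing and 3′ decay, a list that also holds the 5′ to 3′ exonuclease Xrn1, all were tested. Of these, 0 were higher and 1 was lower, with a median log2 fold change of −0.0058. The lower gene was Xrn1 itself, with −0.38 (SE 0.10; edgeR quasi-likelihood F-test with Benjamini-Hochberg adjustment, adjusted p = 0.013), so that no gene of tailing or 3′ decay was called. The uridylyl transferases of the LIN28 pathway were not called. Tut4 had 58.7, 51.4 and 63.8 CPM (WT) against 65.6, 67.8 and 69.5 CPM (KO), without overlap (log2 fold change 0.22, adjusted p = 0.175 from the same edgeR test), and it passed the threshold without WT replicate 3 (0.29, adjusted p = 0.0846). Tut7 had 59.9, 59.9 and 63.3 CPM against 59.0, 58.0 and 61.4 CPM, with a log2 fold change of −0.037.

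Other genes known as let-7 targets moved in both directions. Of 25 listed, 24 were tested, 4 were higher and 8 lower in KO EpiLCs, and the median log2 fold change was −0.11. Over all genes tested, 11.8% were higher and 12.5% lower. The largest increases were those of the cell cycle kinase Cdk6, from 18.0 ± 3.64 to 34.0 ± 5.84 CPM (SD, n = 3; log2 fold change 0.92), and of the transcription factor Mycn, from 84.8 ± 5.97 to 125 ± 9.14 CPM (0.55), followed by the receptor Tgfbr1 (0.50) and Hic2 (0.31). Among the decreases was that of Arid3a, from 14.5 ± 1.83 to 8.43 ± 1.31 CPM (−0.78). Plagl2 (−0.77), the cyclin Ccnd1 (−0.52), Plag1 (−0.50), the growth factor receptors Igf1r (−0.48) and Insr (−0.37), and E2f6 (−0.40) were lower too. Adjusted p-values of the genes named here by the edgeR quasi-likelihood F-test with Benjamini-Hochberg adjustment ran from 3.9e-04 for Cdk6 to 0.0487 for Insr.

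Hic2 lies on chromosome 16, and with the chromosome medians removed it had −0.24 (adjusted p = 0.127 from the edgeR test). Calls that were lost without a single library were those of Insr (WT replicate 3, KO replicate 1 or KO replicate 2, adjusted p up to 0.197 from the same edgeR test), Plag1 (the same libraries, up to 0.135), Plagl2 (WT replicate 1, −0.53 with 0.223, or KO replicate 3, −0.71 with 0.130) and Hic2 (WT replicate 3, KO replicate 2 or KO replicate 3, up to 0.130). Myc and Nras, among the best known targets, had log2 fold changes of −0.21 and −0.00014 and were not called. Of the 24 targets tested, 14 held CTACCTC in the longest 3′ UTR, of which 2 were higher and 4 lower, and of the 10 without it 2 were higher and 4 lower.

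Genes called were also counted by the letters in the UTR, over all genes tested that had a 3′ UTR. Of the 1876 genes with at least 1 CTACCTC, 27.1% were called and the median log2 fold change was −0.013. Of the 11169 genes without it, 26.8% were called and the median was −0.0051. The 645 genes with CTACCTCA had 30.7% called, 102 higher and 96 lower, with a median of −0.0055. Of the 258 genes with at least 2 CTACCTC 27.5% were called, 31 higher and 40 lower. Of the 43 genes with at least 2 CTACCTCA 41.9% were called, 7 higher and 11 lower, and of the 14 with at least 4 CTACCTC 42.9%, 4 higher and 2 lower, and these small classes include 3 and 4 of the members. Of the 3 genes with at least 4 CTACCTCA 1 was called. The differences between these shares were not tested. UTRs with a match were longer, with a median of 2966 bases against 1698.

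**Figure D5:**
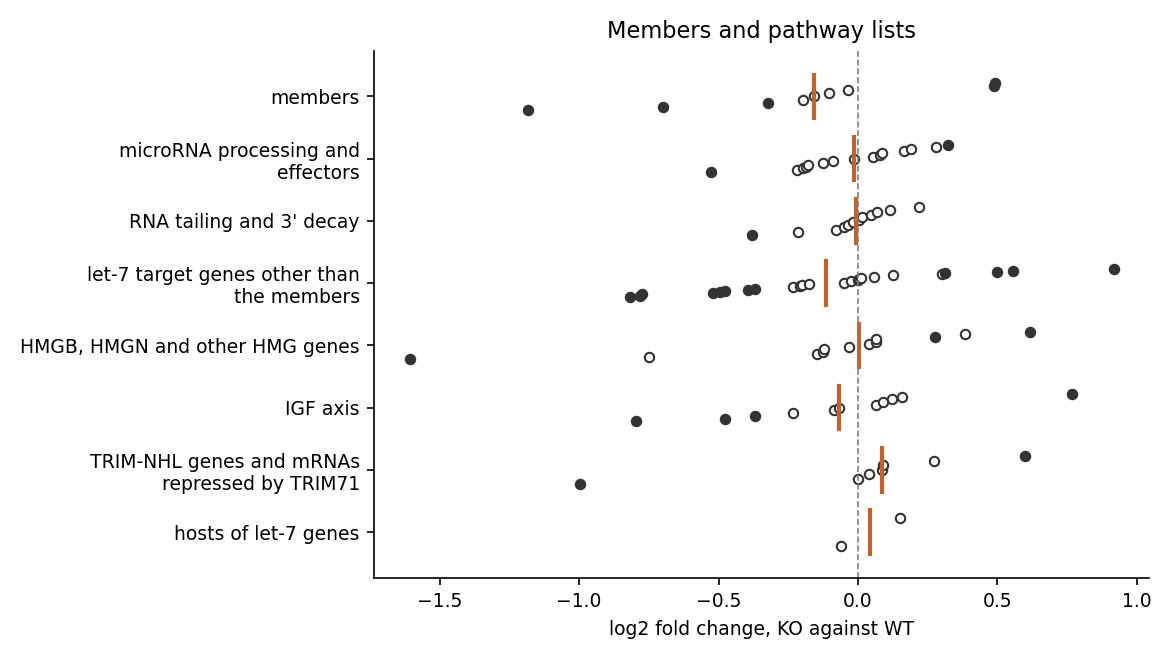
Log2 fold change of KO against WT (horizontal axis) of each gene tested in the members and in 7 lists of related genes, filled where the adjusted p was below 0.1, with the median of the list in orange and that of all genes tested as a dashed line. Among the targets of let-7, Cdk6 is highest at 0.92, and Hmgn3 is lowest of all at −1.61.

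Among the HMGB, HMGN and other HMG genes, a list that also holds Hmga1b, 12 of 13 were tested, 2 were higher and 1 lower, and the median log2 fold change was 0.0033. Instead of 3 genes of this list, 4 were called with the replicate block or without WT replicate 3. Only 2 were called on library totals, with the chromosome medians removed, and on leaving out WT replicate 1 or 2 or KO replicate 2 or 3. Hmgn3, a nucleosome-binding protein, fell from 4.59 ± 0.554 to 1.496 ± 0.287 CPM (SD, n = 3), with a log2 fold change at −1.61 (SE 0.29; edgeR quasi-likelihood F-test with Benjamini-Hochberg adjustment, adjusted p = 5.6e-04). Its paralog Hmgn1 on chromosome 16 rose by 0.62 on the log2 scale (adjusted p = 2.5e-04 from the same edgeR test), and with the chromosome medians removed the value was 0.067 (adjusted p = 0.727). Hmgn2 had 0.28 with an adjusted p of 0.0741 from the edgeR test, and its call was lost without any of 5 libraries, all but WT replicate 3, with adjusted p-values up to 0.243, and also with library totals alone (0.108) and with no filter (0.154). Hmgb4 had 0 counts in every library.

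On the IGF axis, whose ligand mRNA gave the Igf2bp proteins their name, Igf2 had 0 counts in every library. Of 15 genes listed, 11 were tested, 1 was higher and 3 lower, and the median log2 fold change was −0.067. H19, the noncoding RNA next to Igf2 and itself bound by IGF2BP proteins, had 61.3, 46.3 and 45.3 CPM (WT) against 95.1, 53.0 and 112 CPM (KO). KO replicate 2 lay within the WT range and the other KO libraries far above it, with a log2 fold change of 0.77 (adjusted p = 0.00677 by the edgeR quasi-likelihood F-test with Benjamini-Hochberg adjustment, and 0.123 from DESeq2). Igfbp3, a binding protein of IGF ligands, fell from 63.4 ± 4.22 to 36.5 ± 4.44 CPM (SD, n = 3), a log2 fold change of −0.80 (adjusted p = 7.1e-05 from the edgeR test), and Igf1r and Insr are given above with the let-7 targets.

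Of the 7 TRIM-NHL genes and mRNAs known to be repressed by TRIM71, all tested, 1 was higher and 1 lower, and the median log2 fold change was 0.087. Both are cell cycle inhibitors. Cdkn1a fell from 22.7 ± 3.64 to 11.4 ± 2.17 CPM (SD, n = 3), with a log2 fold change at −0.995 (SE 0.17; edgeR quasi-likelihood F-test with Benjamini-Hochberg adjustment, adjusted p = 3.2e-04). Rbl2 rose from 14.4 ± 1.82 to 21.8 ± 2.09 CPM, with a log2 fold change at 0.60 (SE 0.15; same edgeR test, adjusted p = 0.00685).

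The genes whose pattern over the 6 libraries was most like that of a member were sought among 11798 protein-coding genes by the root mean square difference of centred log2 CPM. For Lin28a these were Tpst1, Vdac3 and Commd1 (0.0277, 0.0308 and 0.0309), and for Lin28b Gatm, Paxbp1 and Armcx3 (0.0390, 0.0633 and 0.0686). For Hmga2 they were Pcolce, Eogt and Cyren (0.0740, 0.0984 and 0.102). None of the 3 likest to Lin28a was called, but Tpst1 passed the threshold without WT replicate 1 (−0.28; same edgeR test, adjusted p = 0.0960), with the replicate block (0.0641) and on library totals (0.0735). The call of Armcx3 (0.59, adjusted p = 0.0732) was lost without WT replicate 2, KO replicate 1 or KO replicate 2 (0.48, 0.53 and 0.59, adjusted p = 0.229, 0.199 and 0.151 from the edgeR test), as well as with no filter (0.125), with the chromosome medians removed (0.116) and in DESeq2 (0.149). Paxbp1 lies on chromosome 16, and Eogt and Cyren lie on chromosome 6. With the chromosome medians removed, the log2 fold change of Paxbp1 went from 0.45 to −0.10.

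Markers of the cell states were read beside the members. Over all genes tested, 11.8% were called higher in KO EpiLCs and 12.5% lower. The general pluripotency gene Pou5f1 (896 ± 59.8 and 785 ± 36.9 CPM, SD, n = 3) and the formative markers Fgf5 (69.4 ± 11.01 and 109 ± 5.05) and Otx2 (83.2 ± 22.2 and 157 ± 13.2) were present in WT and KO EpiLCs alike, with log2 fold changes of −0.19, 0.65 and 0.92. Fgf5 and Otx2 were called (adjusted p = 3.8e-04 and 1.7e-04 by the edgeR quasi-likelihood F-test with Benjamini-Hochberg adjustment), and Pou5f1 was not, although it passed with the replicate block (adjusted p = 0.0665 from the same edgeR test) and without WT replicate 3 (adjusted p = 0.09996). Sox2 was called at 0.42 (adjusted p = 0.0283), a call lost without WT replicate 1 (0.35, adjusted p = 0.111) or KO replicate 3 (0.27, adjusted p = 0.206). Of the 4 core pluripotency genes matched, 1 was higher and 0 lower, with summed levels of 1238, 1211 and 1126 CPM (WT replicates 1 to 3) against 1060, 1141 and 1123 CPM (KO replicates 1 to 3), most of it Pou5f1.

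Of the 11 naïve pluripotency genes, 5 were higher and 0 lower, with summed levels of 310, 335 and 334 CPM (WT) against 430, 426 and 530 CPM (KO). The calls of Tcl1 (0.65 without KO replicate 2; edgeR test, adjusted p = 0.172) and Fbxo15 (0.27 without WT replicate 1 and 0.26 without KO replicate 3, adjusted p = 0.164 and 0.199) were lost without a single library. The most abundant was Zfp42, and Esrrb had the largest log2 fold change, 1.39. Of the 8 formative genes 3 were higher and 0 lower, with summed levels of 2409, 2499 and 2227 CPM against 2480, 2360 and 2300 CPM, most of it Dnmt3b. Of 5 neural genes 3 were tested and 2 were lower, with summed levels of 48.6, 47.3 and 52.7 CPM against 25.5, 21.9 and 23.0 CPM, most of it Nes (log2 fold change −1.41).

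Markers of extraembryonic and mesodermal cells were rare in both groups. Of 6 primitive endoderm genes, 4 were tested and 2, Gata6 and Pdgfra, were higher (1.35 and 0.94), while Gata4 and Foxa2 were below the filter. The summed levels of the 6 genes were 8.41, 6.37 and 7.02 CPM against 14.1, 6.54 and 18.3 CPM. Dab2 had the highest mean in WT EpiLCs (2.59 CPM). In KO EpiLCs Gata6 had the highest (3.50 CPM), followed by Pdgfra (3.42 CPM) and Dab2 (3.27 CPM). The call of Gata6 was lost without KO replicate 3 (1.02; edgeR test, adjusted p = 0.113). That of Pdgfra (adjusted p = 0.0991) was lost without WT replicate 2 (0.63, adjusted p = 0.309), WT replicate 3 (1.12, 0.111), KO replicate 1 (0.71, 0.332) or KO replicate 3 (0.80, 0.276) in the edgeR test. It was also lost with library totals alone (0.124), with the chromosome medians removed (0.104) and in DESeq2 (0.157). Of 5 genes of primitive streak and mesoderm only Eomes was tested and it was higher, with summed levels of 6.48, 6.28 and 6.14 CPM against 10.9, 8.78 and 11.8 CPM, and T, Mixl1, Mesp1 and Gsc were near 0. Of 5 trophoblast genes only Krt7 was tested and it was lower, with summed levels of 6.33, 8.38 and 7.76 CPM against 4.12, 3.39 and 3.30 CPM, and Cdx2, Elf5, Gata3 and Hand1 were near 0. The part of these markers in the results on the members was not tested.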

How the data were processed

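Total RNA libraries from 3 WT and 3 KO EpiLC cultures were sequenced by the study. For quality control the authors used FastQC and for trimming Fastp. Alignment to GRCm39 used two-pass STAR, and raw counts for each Ensembl gene were deposited. The libraries were stranded, but the strand setting of the counting, the treatment of reads with several matches and the annotation release are not given in the sources used here. Of 55416 identifiers, 54749 were matched to GENCODE M39 (GRCm39). Groups were taken from the sample labels.

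Counts were tested in R 4.3.3 with edgeR 4.0.16 (limma 3.58.1), by TMM normalization, filterByExpr with a minimum count of 10, and the quasi-likelihood test with genotype as the only term, with Benjamini-Hochberg adjustment over 15746 genes. Genes were called at an adjusted p below 0.1. Standard errors came from the F statistic. The steps were tested on simulated data. CPM are scaled by library size times TMM factor. The medians of chromosomes used genes tested, on chromosomes with at least 50, and neighbours were genes tested whose starts lay within 5 Mb. No library duplicated another of its group (chi-square per degree of freedom 6.94 to 11.8). SDs and SEs give the precision. The p-values set the difference between KO and WT against the spread among replicates. These replicates come from 1 KO clone and its parental line.

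The study describes the replicates as paired. Deviations from the group means were correlated across 13878 genes, which are not independent replicates. The correlations were 0.220, 0.268 and 0.113 between libraries with the same number. Between libraries with different numbers they ran from −0.199 to −0.030. Only the replicate block took the numbers as pairs. The main test and the other alternatives left the pairing out. The alternatives were DESeq2 1.42.0, RLE size factors, a replicate block, library totals alone, a minimum of 10 counts per library, no filter, an adjusted p below 0.05, each library left out in turn, removal of chromosome medians and the longest transcript as the length.

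The members and lists were chosen with earlier results of these data known. Genes named are the 9 members, list genes with an adjusted p below 0.1, the pathway genes Tut4, Tut7, Dicer1, Drosha, Dgcr8 and Ago2, Pou3f1, the markers Pou5f1, Sox2, Fgf5 and Otx2, and for Lin28a, Lin28b and the called member with the largest change the 3 protein-coding genes with an average log2 CPM of at least 1 whose centred log2 CPM (prior count 2) were most like it. Not every gene that meets these criteria is named. Huwe1 and Wdr82 are named as the hosts tested, Dnmt3b and Dab2 as the most abundant of their lists over all libraries. The let-7 genes and genes that share sequence or exon bases with a member are named as such. Myc, Nras, Igf2, Hmgb4 and markers below the filter were named after their values were seen. Mirlet7bhg and Tdgf1 were not matched. No list was tested as a set. Protein sequences were not used here.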

Additional observations from a re-analysis of the deposited data

How the results depend on the processing

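Of the 9 members, Lin28b, Hmga2, Igf2bp1 and Igf2bp3 kept their direction and their call under every alternative run, and Trim71 and Hmga1 kept their direction and stayed above the threshold. With the replicate block, which took the numbers as pairs, Lin28a had −0.19 and passed the threshold (adjusted p = 0.0773 by the edgeR quasi-likelihood F-test with Benjamini-Hochberg adjustment), against adjusted p-values from 0.0773 to 0.440 over all its alternatives, and 6 members and 4764 genes were called. The block changed no other call of a member, and of the other genes named it brought Pou5f1, Tpst1 and Gatm past the threshold. With the chromosome medians removed, the log2 fold changes that changed sign were those of Igf2bp2 (−0.063), Dgcr8 (−0.23), Hic2 (−0.24) and Paxbp1 (−0.10), all on chromosome 16, and the calls among the genes of microRNA processing went from 2 to 1. With a library left out in turn, Igf2bp2 ran from 0.37 to 0.70, Dis3l2 from −0.11 to 0.045 (0.045 without KO replicate 2, a change of sign in a value near 0), Lin28b from 0.34 to 0.58 and Hmga2 from −1.27 to −1.05, while calls of microRNA processing ran from 1 (without KO replicate 1) to 3 (without WT replicate 2) and those of RNA tailing and decay from 1 to 2. The cause of the changes under left-out libraries was not tested. With the longest transcript as the length, WT levels per kilobase rose because it is shorter than the union of exons, to 118 for Lin28a, 12.8 for Lin28b, 1.38 for Hmga2, 67.2 for Igf2bp1, 5.24 for Igf2bp2, 47.3 for Igf2bp3 and 4.28 for Dis3l2. The number of genes called ran from 2989 at an adjusted p below 0.05 to 4764 with the block. For single genes other than the members, 686 of the values under alternatives kept direction and side of the threshold, 43 fell short of it, 8 passed it and 3 changed sign. Hmga2, with 27 to 95 counts in a library, and the let-7 genes are limited by depth, as are genes with fewer counts such as Hmgn3 (16 to 68).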
